A study of Mus musculus with 31 samples.

Results

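Catecholamine synthesis and transport was followed through 7 genes, chosen by name for their roles, with earlier results of these data known: Th, Ddc, Dbh, Gch1, Slc18a2, Slc6a2 and Slc6a3. They are 7 of the 55421 mouse genes counted, all 7 have a row in both deposited tables, and all 7 counted as measured, which here means that 25% or more of the cells of either group had a read. The cells were single neurons of acute brainstem slices from mice carrying ChAT-IRES-Cre and a tdTomato reporter, so that red protein marks cells in which the promoter of the choline acetyltransferase gene has at some time driven Cre. The sample labels give the genotype as wild-type, and neither an animal nor an age is named. After patch-clamp recording the cytoplasm was aspirated and turned into 1 Smart-seq2 library per cell, from 18 lateral olivocochlear (LOC) neurons of the lateral superior olive and 13 medial olivocochlear (MOC) neurons of the trapezoid body's ventral nucleus, with no other treatment than the recording in either group. Because no animal is named, each group counts as 1 sample: no difference was tested, SDs are spreads between cells, and intervals cover counting error only.

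Catecholamines are made from tyrosine in a chain of steps. Tyrosine hydroxylase (Th) makes L-DOPA and sets the pace, and it needs the cofactor tetrahydrobiopterin (BH4), whose synthesis starts with GTP cyclohydrolase (Gch1). Aromatic amino acid decarboxylase (Ddc) turns L-DOPA into dopamine, dopamine beta-hydroxylase (Dbh) turns dopamine into noradrenaline, the vesicular monoamine transporter VMAT2 (Slc18a2) loads the product into vesicles, and the noradrenaline (Slc6a2) and dopamine (Slc6a3) transporters of the plasma membrane take it back up. Olivocochlear neurons are cholinergic cells that project to the cochlea, and dopamine has been described as a co-transmitter of some LOC neurons. A neuron that carried Th transcripts alone would lack those of the later steps, which is why the transcripts were read cell by cell.

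The libraries held 356412 to 1404896 counts over mouse genes in LOC cells (median 768815) and 598028 to 2627174 in MOC cells (median 906622). Levels are given as CPM, the reads of a gene per 1000000 reads of these totals. A single read was therefore worth 0.38 to 2.81 CPM, and a count of 0, which allows up to 3 counts, allowed up to 1.14 to 8.42 CPM in a cell. Fewer than 10 reads over the cholinergic genes Chat, Slc18a3 and Slc5a7 together were present in 4 LOC and 5 MOC libraries, and reads of tdTomato in 11 LOC and 9 MOC libraries. By these defining markers the label of a cholinergic neuron was therefore not borne out in every library, and for the 7 genes the levels, the cells with Th and the cells with 4 genes are also given without the 9 libraries poor in cholinergic reads. Pairs, correlations, levels per kilobase and the other gene lists are given over all 31 libraries only.

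The start sites of the 4 genes that were read together cell by cell are shown first, since the question turns on whether they appear in the same neuron. Promoter sequences from RefSeq (GRCm38.p6) were matched for 6 of the 7 genes, and none was used for Slc6a2. Each sequence below runs 5′ to 3′ on the gene's strand from 250 bases before the start to 30 after it. Capitals mark the cAMP response element TGACGTCA or the NR4A element AAAGGTCA, searched on both strands, so that the latter can read TGACCTTT. The motifs share no position in these windows.
Th, chr7:142899966-142900245, minus strand: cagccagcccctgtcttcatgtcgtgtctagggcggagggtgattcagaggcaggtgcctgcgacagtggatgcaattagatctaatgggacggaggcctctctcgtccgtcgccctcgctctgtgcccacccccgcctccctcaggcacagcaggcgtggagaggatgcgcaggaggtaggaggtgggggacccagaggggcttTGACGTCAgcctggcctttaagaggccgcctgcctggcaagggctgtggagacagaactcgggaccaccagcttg
Slc18a2, chr19:59260628-59260907, plus strand: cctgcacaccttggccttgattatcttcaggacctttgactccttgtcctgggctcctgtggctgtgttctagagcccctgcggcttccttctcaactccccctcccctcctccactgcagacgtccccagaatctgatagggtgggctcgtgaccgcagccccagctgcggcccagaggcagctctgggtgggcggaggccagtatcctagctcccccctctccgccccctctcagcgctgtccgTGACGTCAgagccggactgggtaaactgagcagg
Gch1, chr14:47189384-47189663, minus strand: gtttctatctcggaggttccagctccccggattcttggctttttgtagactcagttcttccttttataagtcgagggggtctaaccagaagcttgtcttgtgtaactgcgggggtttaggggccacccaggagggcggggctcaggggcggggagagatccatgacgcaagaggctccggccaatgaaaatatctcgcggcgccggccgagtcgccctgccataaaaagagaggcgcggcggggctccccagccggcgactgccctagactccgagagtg
Ddc, upstream start, chr11:11898115-11898394, minus strand: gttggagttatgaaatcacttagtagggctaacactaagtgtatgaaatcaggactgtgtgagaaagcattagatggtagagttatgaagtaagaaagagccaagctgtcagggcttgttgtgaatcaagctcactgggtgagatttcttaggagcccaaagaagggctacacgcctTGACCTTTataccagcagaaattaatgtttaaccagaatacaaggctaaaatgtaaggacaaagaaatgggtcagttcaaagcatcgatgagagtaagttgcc
Ddc, downstream start, chr11:11890379-11890658, minus strand: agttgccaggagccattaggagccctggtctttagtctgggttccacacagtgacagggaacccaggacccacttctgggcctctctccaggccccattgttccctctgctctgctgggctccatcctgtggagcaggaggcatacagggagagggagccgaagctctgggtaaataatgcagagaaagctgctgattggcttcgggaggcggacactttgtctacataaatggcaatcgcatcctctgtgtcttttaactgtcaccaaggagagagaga
The element TGACGTCA stood 45 bases before the start of Th and 4 bases before that of Slc18a2, counted to its first base. It was in 572 of all 32851 promoter windows of this length (1.74%). AAAGGTCA was found once, 73 bases before the upstream start of Ddc, and in 1.45% of all windows. Gch1, the downstream start of Ddc, Dbh and Slc6a3 held neither. A match describes the letters only, and no binding was measured here.

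All 7 genes were read at low levels and in some cells of either group, as the map of reads by cell shows. Of the 217 values (7 genes in 31 cells) 137 were above 0, and 40.9% of those rested on 1 to 3 reads. A cell type that should lack these genes was not sampled. For scale, Tph2, which makes serotonin and is not a gene of this chain, had a read in 9 of 31 cells and at least 5 reads in 2 of them, and Pnmt, which makes adrenaline, had a read in 2 cells and never 5. For this reason detection is given below at 1 read and at 5 reads.

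**Figure D1:**
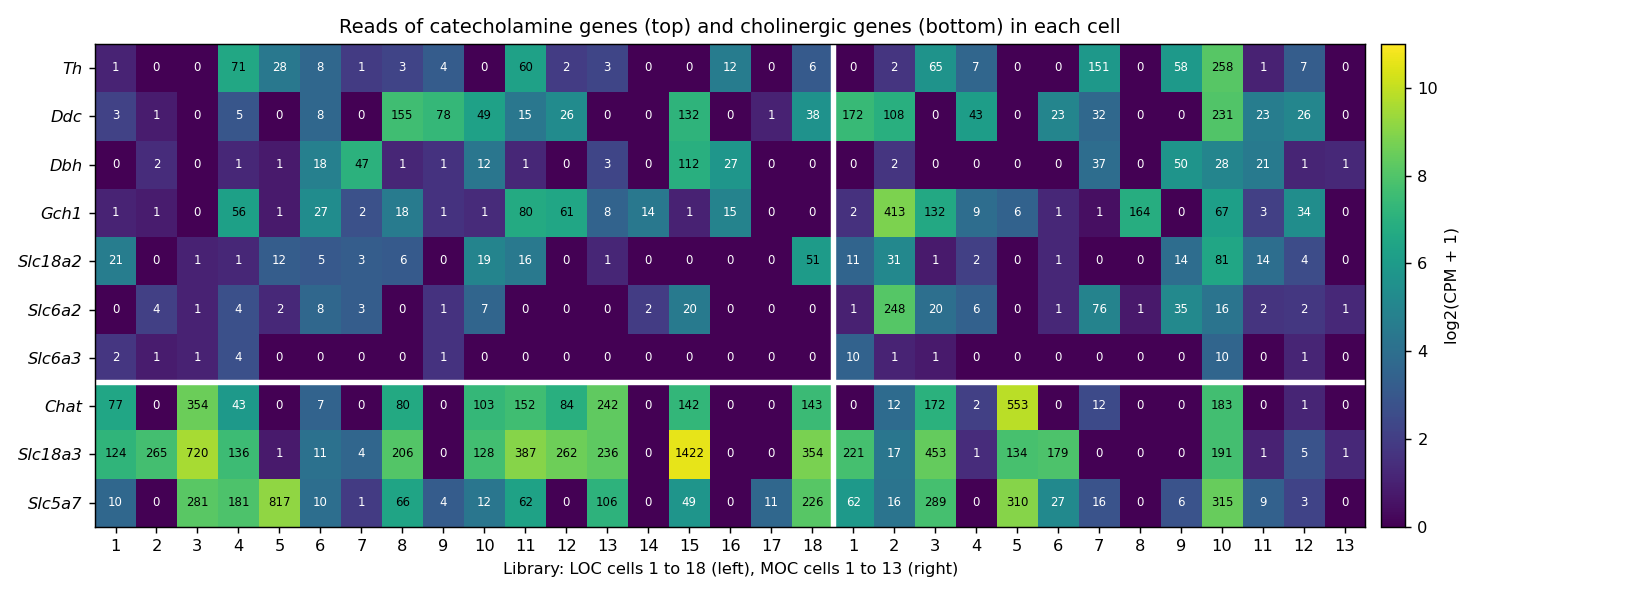
Each column is 1 cell (LOC cells 1 to 18 on the left, MOC cells 1 to 13 on the right) and each row a gene, with the 7 catecholamine genes above the line and 3 cholinergic genes below it. Colour gives log2(CPM + 1) and the printed digits are reads. MOC cell 10 is the only column with at least 5 reads of all 7 catecholamine genes, and it also holds Chat, Slc18a3 and Slc5a7.

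Th was present in either group, with most of its reads in a few cells. It lies on chromosome 7 from 142892752 to 142931128 (minus strand, GRCm38, ENSMUSG00000000214), and no other annotated gene overlaps it. LOC cells ran from 0 to 96.3 CPM with a median of 3.38, led by LOC cell 4 (71 reads, 96.3 CPM), LOC cell 11 (60 reads, 78.3 CPM) and LOC cell 16 (12 reads, 23.6 CPM). MOC cells ran from 0 to 285 CPM with a median of 2.23, led by MOC cell 10 (258 reads), MOC cell 9 (58 reads, 58.5 CPM), MOC cell 7 (151 reads, 57.5 CPM) and MOC cell 3 (65 reads, 49.0 CPM). The groups overlapped except for MOC cell 10, which lay above every LOC cell, and the other 12 MOC cells lay within the LOC range.

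A Th read was found in 12 of 18 LOC cells (66.7%, exact 95% Clopper-Pearson interval 41.0 to 86.7) and 8 of 13 MOC cells (61.5%, 31.6 to 86.1). With at least 5 reads required, 6 LOC and 6 MOC cells remained. Thinned to 350000 counts per library, the expected number of cells with a read was 10.78 in LOC and 6.98 in MOC. Summed over cells, Th stood at 13.96 CPM in LOC (exact 95% Poisson interval 12.1 to 16.04) and at 40.3 in MOC (37.0 to 43.8). MOC cell 10 alone held 47.0% of the MOC reads, and without it the sum was 22.9 CPM. The mean log2(CPM + 1) was 2.30 ± 2.18 (SD, n = 18 cells) in LOC and 2.71 ± 2.89 (n = 13 cells) in MOC, a difference of -0.40 (LOC minus MOC) that is small beside the spread. Its sign was not stable: the medians differed by 0.43 toward LOC, and the difference of means was 0.05 without MOC cell 10.

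Ddc makes dopamine from L-DOPA and also serotonin from its precursor. Over all LOC cells it had the highest summed CPM per kilobase of exon of the 7 genes (8.03). This place rested on LOC cell 8, without which Ddc had 5.92, below Th (6.15) and below Dbh. Ddc lies on chromosome 11 from 11814101 to 11898144 (minus strand). LOC cells ran from 0 to 198 CPM (median 5.13) and MOC cells from 0 to 255 CPM (median 24.4). The highest LOC cells were 8 (155 reads, 198 CPM), 9 (78 reads, 159 CPM) and 15 (132 reads, 143 CPM), and the highest MOC cells 10 (231 reads), 1 (172 reads) and 2 (108 reads). Of these 6 cells, MOC cell 10 alone had 5 or more reads of Th. LOC cell 15 and MOC cell 1 had no Th read, which allows up to 3.24 and 2.95 CPM. Ddc was detected in 12 LOC cells of 18 and 8 MOC cells of 13 at 1 read, and 9 and 8 cells at 5 reads. Summed CPM was 35.8 (32.8 to 39.1) over LOC cells and 48.3 (44.6 to 52.1) over MOC cells, with means 0.59 apart on the log2 scale (LOC minus MOC -0.59). Leaving out MOC cell 10 took it to -0.22, and its sign was the same in all alternatives run.

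Dbh, which marks noradrenergic cells, had its highest LOC values in cells with little or no Th. It lies on chromosome 2 from 27165233 to 27183200 (plus strand). LOC cells ran from 0 to 132 CPM (median 1.33) and MOC cells from 0 to 50.4 CPM (median 1.22). LOC cell 7 had 47 reads (132 CPM) beside a single Th read, and LOC cell 15 had 112 reads (121 CPM) and no Th read. LOC cell 16, by contrast, had 27 Dbh reads beside 12 of Th, and MOC cell 9 had 50 Dbh reads beside 58 of Th. LOC cells 7 and 16 and MOC cell 9 held 5, 0 and 6 cholinergic reads, while LOC cell 15 held 1613. MOC cell 10, with 28 Dbh reads, held 689. In LOC cells Dbh stood at 36.4 CPM in the 4 libraries with fewer than 10 and at 12.4 CPM in the other 14. In MOC cells Dbh stood at 11.4 CPM in the 5 libraries with fewer than 10 and at 9.72 CPM in the other 8. The sums were 15.9 CPM in LOC and 10.3 in MOC, and the difference of means was 0.35. LOC cell 15 held 49.6% of the LOC reads, and without it the LOC sum was 8.55 CPM, below that of MOC. The difference of means was -0.17 in libraries with at least 10 cholinergic reads (12.4 CPM in LOC, 9.72 in MOC), so no direction is given.

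Gch1 had a read in 26 of all 31 cells, the most of the 7 genes at that threshold, though in MOC cells Slc6a2 was read in more (12), and at 5 reads Ddc was (17 cells of 31, against 15 for Gch1). It lies on chromosome 14 from 47153895 to 47189413 (minus strand) and encodes the first enzyme of BH4 synthesis, which tyrosine, tryptophan and phenylalanine hydroxylases share. It was read in 15 LOC cells of 18 and 11 MOC cells of 13, with 5 reads or more in 8 and 7. LOC cells ran from 0 to 104 CPM (median 3.82), with LOC cells 11 (80 reads), 12 (61 reads) and 4 (56 reads) on top. MOC cells ran from 0 to 461 CPM (median 10.03), with MOC cell 2 (413 reads) far above MOC cells 8 (164 reads, 113 CPM) and 3 (132 reads, 99.5 CPM). Summed CPM was 20.1 (17.9 to 22.6) over LOC cells and 61.0 (56.9 to 65.3) over MOC cells, or 32.9 without MOC cell 2. The difference of means of -0.72 had the same sign in all 7 alternatives run and was -0.28 without MOC cell 2. In libraries with at least 10 cholinergic reads it was -1.10, with 20.9 CPM in LOC and 69.0 in MOC.

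Slc18a2, the transporter without which a monoamine is not stored in vesicles, was low in either group. It lies on chromosome 19 from 59260896 to 59296012 (plus strand), and 111 exon bases overlap the antisense gene Gm29261, which had 3 LOC reads and 1 MOC read in all. LOC cells ran from 0 to 64.3 CPM (median 1.33) and MOC cells from 0 to 89.3 CPM (median 3.21). The highest were MOC cell 10 (81 reads) and LOC cell 18 (51 reads), followed by MOC cell 2 (31 reads, 34.6 CPM), LOC cell 10 (19 reads, 29.8 CPM) and LOC cell 1 (21 reads, 24.4 CPM). A read was found in 11 LOC and 9 MOC cells, and at least 5 reads in 7 and 5. Summed CPM was 9.54 (8.003 to 11.3) over LOC cells and 11.7 (9.92 to 13.6) over MOC cells. Without MOC cell 10 the MOC sum was 6.13 CPM and the difference of means, -0.28, became 0.07. Without LOC cell 18 the LOC sum was 6.31 CPM.

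Per kilobase of exon, the vesicular transporter of monoamines stood far below its cholinergic relative. Slc18a2 had 1.83 summed CPM per kilobase in LOC and 2.23 in MOC, against 124 and 36.6 for Slc18a3, whose reads may be shared with Chat since it lies within that gene. In the same unit, LOC cells had 8.03 of Ddc, 5.90 of Th, 5.89 of Dbh, 3.22 of Gch1, 0.58 of Slc6a2 and 0.18 of Slc6a3. MOC cells had 17.03 of Th, 10.82 of Ddc, 9.76 of Gch1, 4.77 of Slc6a2, 3.81 of Dbh and 0.49 of Slc6a3. Single libraries carried much of this order. Without MOC cell 2, Slc6a2 had 2.01 per kilobase in MOC, below the 4.02 of Dbh, and Gch1 had 5.26. Without MOC cell 10, Th had 9.67, close to the 9.61 of Gch1, and Slc18a2 had 1.17. Without LOC cell 15, Dbh had 3.18 in LOC and Slc6a2 0.38, and without LOC cell 18 Slc18a2 had 1.21. Slc6a3 also moved by over 1.5 times without LOC cell 4, MOC cell 1 or MOC cell 10 (0.11, 0.30 and 0.30). Ddc moved by less but changed place. It had 5.92 in LOC without LOC cell 8, below the 6.15 of Th and below Dbh. In MOC it had 7.52 without MOC cell 10, below the 9.61 of Gch1. Over all libraries, Th and Dbh in LOC, and Ddc and Gch1 in MOC, were neighbours in these orders that differ by far less than the spread of either gene over cells.

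The transporters of the plasma membrane differed from each other. Slc6a2 (chromosome 8, 92960079 to 93001667, plus strand) was read in 10 LOC cells of 18 and 12 MOC cells of 13, with 5 reads or more in 3 and 6. LOC cells ran from 0 to 21.6 CPM (median 1.23) and MOC cells from 0 to 277 CPM (median 2.44). MOC cell 2 held 248 of the 409 MOC reads, followed by MOC cell 7 with 76 and MOC cell 9 with 35, while no LOC cell exceeded the 20 reads of LOC cell 15. Summed CPM was 3.65 (2.72 to 4.78) over LOC cells and 29.99 (27.2 to 33.0) over MOC cells. The mean log2(CPM + 1) was 1.42 ± 1.56 (SD, n = 18 cells) and 2.89 ± 2.32 (n = 13 cells), a difference of -1.46.

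Slc6a2 was the single gene of the 7 to meet a fixed rule of size, which asks for 2-fold or more in summed CPM, 1 or more in the difference of mean log2(CPM + 1), and a read in 25% or more of the cells of the group that is higher. Of all 17754 measured genes, 5.67% met this rule toward MOC and 6.07% toward LOC, beside 1 of the 7 genes toward MOC and 0 toward LOC. A count of 1 among 7 sets them apart from other genes in neither direction. The median difference of the 7 genes was -0.40, beside -0.07 over all measured genes. Without MOC cell 2 the sum in MOC was 12.6 CPM and the difference -1.03, which still met the rule. In libraries with at least 10 cholinergic reads Slc6a2 (3.77 CPM in LOC, 40.2 in MOC, difference -1.79) and Gch1 met it. With at least 50 (12 LOC and 5 MOC cells) Slc6a2 did not (-0.83), while Gch1 (-1.10) and Slc6a3 (-1.04) did. With a pseudocount of 10 the difference of Slc6a2 was -0.70 and no gene met the rule. Microglial markers moved the same way: 4 of the 7 on that list met the rule toward MOC and none toward LOC, their summed level ran from 3.89 to 1838 CPM in LOC (median 108) and from 40.7 to 7046 CPM in MOC (median 391), and MOC cell 2 itself had 112 CPM. That cell stood apart in other markers. It had the highest values of all 31 cells for Slc17a7, a vesicular glutamate transporter of excitatory neurons (731 CPM), and for Nr4a2 (649 CPM). It also had 19019 genes with a read and 45 cholinergic reads. Its noradrenergic list sum of 303 CPM includes 277 CPM of Slc6a2 itself. Excitatory markers summed to 2.11 to 709.7 CPM in LOC (median 70.1) and 0.75 to 733 CPM in MOC (median 86.8). The part of any of these in the difference of Slc6a2 was not tested.

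Slc6a3, the dopamine transporter and the defining marker of midbrain dopamine neurons, was close to the limit of detection. It lies on chromosome 13 from 73536747 to 73578672 (plus strand). The LOC total was 9 reads in 5 of 18 cells (0.63 CPM, 0.29 to 1.198) and the MOC total 23 reads in 5 of 13 cells (1.69 CPM, 1.07 to 2.53). At least 5 reads were present in no LOC cell and in 2 MOC cells, MOC cells 1 and 10 with 10 each. Those 2 cells held 20 of the 23 MOC reads, and no direction is given.

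**Figure D2:**
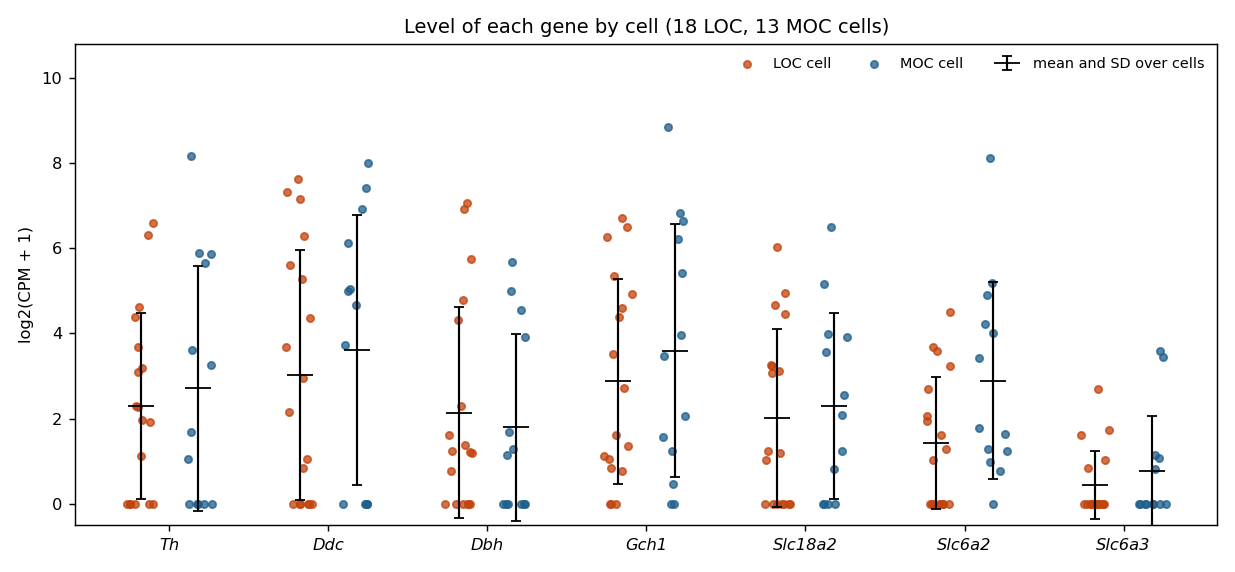
Each point is 1 cell, orange for LOC (18 cells) and blue for MOC (13 cells), on a vertical axis of log2(CPM + 1), with the mean and SD over cells in black. The groups overlap for every gene, many cells lie at 0, and Slc6a2 has the widest gap between means (1.42 in LOC, 2.89 in MOC).

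The central question was whether a cell with Th also carried Ddc, Gch1 and Slc18a2. At 1 read, all 4 genes were found together in 5 LOC cells of 18 (27.8%, exact 95% interval from 9.69 to 53.5) and 5 MOC cells of 13 (38.5%, 13.9 to 68.4). They were LOC cells 1, 4, 6, 8 and 11 and MOC cells 2, 4, 10, 11 and 12. Of the 20 cells with Th, 10 had all 3 partners, 8 had 2 of them, 2 had 1, and none had Th alone. The totals of the 10 libraries with all 4 genes ran from 622287 to 942173 counts, while the deepest library of all had 2627174. By genes with a read, the top 3 of all 31 libraries were among the 10, namely MOC cell 12 (19231), MOC cell 2 (19019) and LOC cell 6 (18414), and the next had 15253. The part of this in joint detection was not tested. Of the 10, 8 had at least 10 cholinergic reads, and MOC cells 4 and 12 had 3 and 9.

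With at least 5 reads of each gene the set of 4 was left in 3 cells, namely LOC cells 6 and 11 and MOC cell 10. These 3 cells held 28, 601 and 689 cholinergic reads. MOC cell 10 stood out, with 285 CPM of Th, 255 of Ddc, 73.9 of Gch1 and 89.3 of Slc18a2, joined by 30.9 of Dbh, 17.6 of Slc6a2 and 11.03 of Slc6a3, beside 183 reads of Chat, 191 of Slc18a3 and 315 of Slc5a7. LOC cell 11 had 78.3 CPM of Th, 19.6 of Ddc, 104 of Gch1 and 20.9 of Slc18a2, with 1 read of Dbh and none of Slc6a2 or Slc6a3. It also held 135 reads of Ucn and 1967 of Calca, peptide genes known from LOC neurons. LOC cell 6 had 11.8 CPM of Th, 11.8 of Ddc, 39.9 of Gch1 and 7.38 of Slc18a2, and held 1 read of Ucn and 2 of Calca. Gad1, the enzyme that makes GABA, had 105 reads in LOC cell 6, 120 in LOC cell 11 and 71 in MOC cell 10. These were 155, 157 and 78.3 CPM. Gad1 was read in 17 of 18 LOC cells (median 36.6 CPM) and 13 of 13 MOC cells (median 129 CPM).

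At 10 CPM of each gene, 1 LOC cell (LOC cell 11) and 1 MOC cell (MOC cell 10) had the full set, or 2 of 31 cells (6.45%, exact interval 0.79 to 21.4). Other cells high in Th fell under 10 CPM for 1 or more other genes of the set. LOC cell 4, the highest LOC cell, had 75.9 CPM of Gch1 but 5 reads of Ddc and 1 of Slc18a2. MOC cell 3 had 99.5 CPM of Gch1, no read of Ddc, which allows up to 2.26 CPM, and 1 read of Slc18a2. MOC cell 9 had 14 reads of Slc18a2, 50 of Dbh and 35 of Slc6a2, but no read of Ddc or Gch1, and held 6 cholinergic reads and 563 reads of Gad1. MOC cell 7, the deepest library, had 32 reads of Ddc, 1 of Gch1 and none of Slc18a2. LOC cell 5 had 28 reads of Th and 12 of Slc18a2, 1 of Gch1 and none of Ddc. A count of 0 allows up to 3.02 CPM in MOC cell 9, 1.14 in MOC cell 7 and 2.14 in LOC cell 5.

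Cells without Th could also hold the other 3 genes. At 1 read this was so in 3 of the 11 cells without a Th read, LOC cell 10 and MOC cells 1 and 6. MOC cell 6 rested on 1 read each of Gch1 and Slc18a2, LOC cell 10 on 1 of Gch1 and MOC cell 1 on 2. MOC cell 6 had 8 reads of Tph2, while LOC cell 10 and MOC cell 1 had none. LOC cell 8 and MOC cell 2 had at least 5 reads of the other 3 genes but fewer than 5 of Th. They had 3 and 2 reads of Th and were among the 10 cells with all 4 genes at 1 read.

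**Figure D3:**
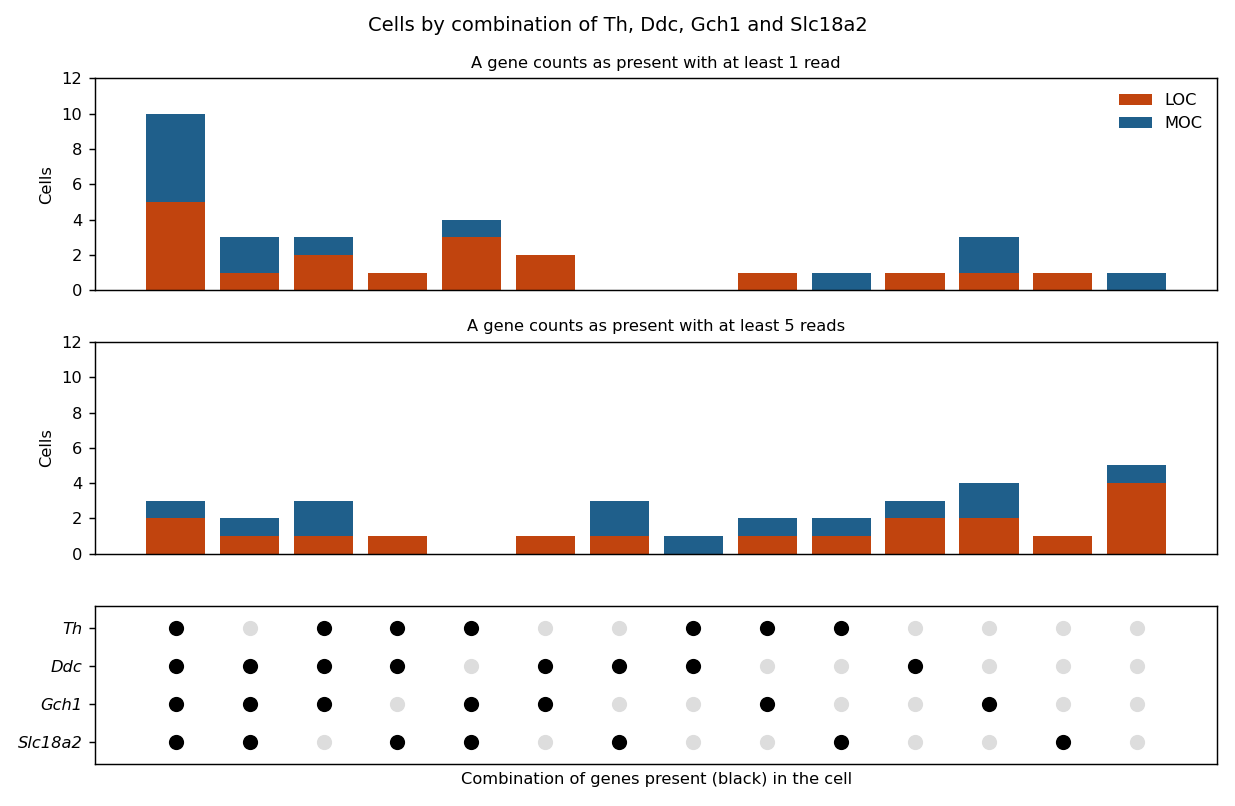
Bars count the cells (LOC orange, MOC blue) with each combination of Th, Ddc, Gch1 and Slc18a2, marked by black dots in the lower panel, at 1 read (top) and at 5 reads (middle). The full set falls from 10 cells at 1 read to 3 cells at 5 reads, and 5 cells have none of the 4 genes at 5 reads.

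Taken pair by pair, the partner most tied to Th by detection was Slc18a2, a choice made after the values were seen. A Slc18a2 read was present in 16 of 20 cells with Th (80.0%) and 4 of 11 without (36.4%). The same counts for Dbh were 15 of 20 and 4 of 11, for Ddc 14 of 20 and 6 of 11, and for Gch1 18 of 20 and 8 of 11. In LOC cells alone, Ddc was read in 8 of 12 cells with Th and 4 of 6 without, which is the same share of 66.7%. For Slc6a2 the order was the other way, with 13 of 20 (65.0%) and 9 of 11 (81.8%). At 5 reads, Slc6a2 had the widest gap, 6 of 12 cells with Th against 3 of 19 without (15.8%), and in MOC cells 5 of 6 against 1 of 7. At that threshold Slc18a2 was present in 6 of 12 and 6 of 19, Gch1 in 8 of 12 and 7 of 19, Ddc in 8 of 12 and 9 of 19, and Dbh in 5 of 12 and 4 of 19. Which partner came first therefore changed with the threshold. In MOC cells at 5 reads the order for Slc18a2 was turned, with 2 of 6 cells with Th and 3 of 7 without.

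By level, Th went with Gch1 in LOC cells and not with Ddc. Over the 18 LOC cells the Pearson correlation of log2(CPM + 1) with Th was 0.60 for Gch1 (Spearman 0.55), 0.24 for Slc18a2, 0.06 for Ddc and 0.01 for Dbh. Gch1 ranked 73 among the 9762 genes with at least 5 reads in at least 5 LOC cells. Without LOC cells 4 and 11, the cells farthest from the median of Th, the correlation with Gch1 was 0.36. Over the 13 MOC cells it was 0.13, with 0.38 for Slc18a2 (-0.09 without MOC cells 9 and 10), 0.14 for Ddc and 0.60 for Dbh (0.27 without those cells). These values describe sparse counts from libraries of unequal depth and carry no test.

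**Figure D4:**
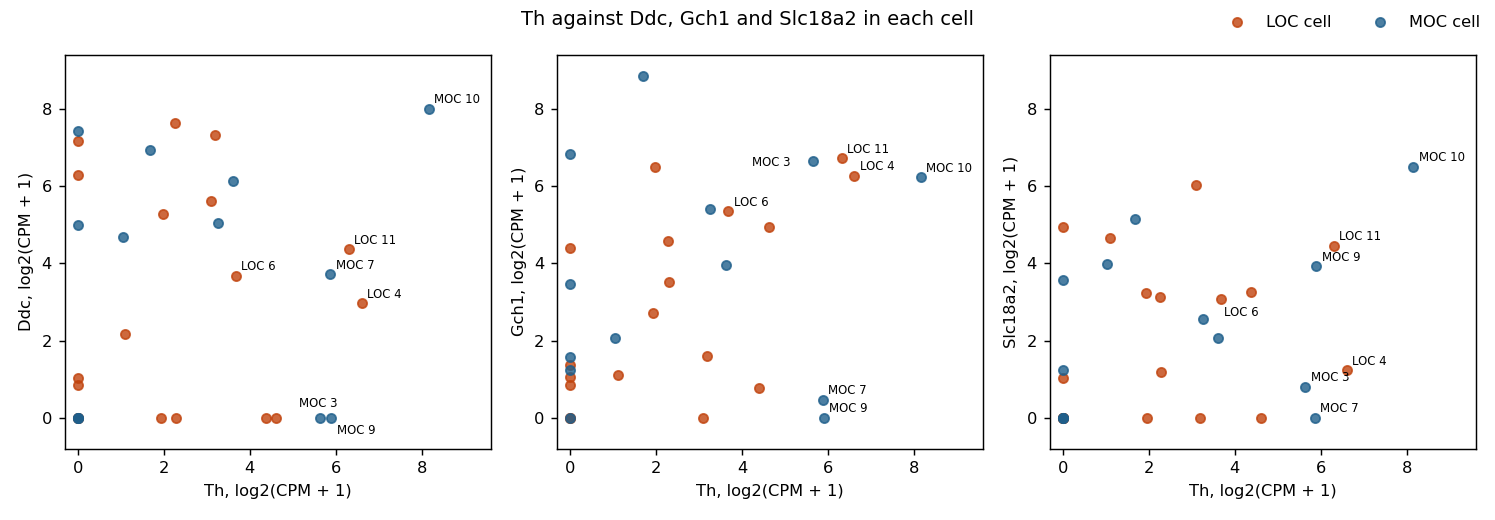
Each point is 1 cell (LOC orange, MOC blue) placed by its log2(CPM + 1) of Th and of Ddc (left), Gch1 (middle) or Slc18a2 (right), with the cells discussed in the text named. MOC cell 10 is high on all axes, LOC cells 4 and 11 are high in Th and Gch1, and MOC cells 3 and 9 lie at 0 for Ddc.

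The genes whose levels were most like Th over the 18 LOC cells belonged to none of the lists used here. They were Slc35e4 (Pearson 0.83, Spearman 0.82), Slc25a38 (0.76), Irak2 (0.76), H2afv (0.75) and Pxmp4 (0.75), out of 9762 genes ranked. Over the 13 MOC cells the same correlations ran from -0.42 for Slc35e4 to 0.19 for H2afv. For Ddc the closest were Tgfbrap1 (0.82), Fnip2 (0.81), Fbxo3 (0.81), Gm17018 (0.78) and Ankra2 (0.75), and over MOC cells they ran from -0.11 to 0.25. These values are a ranking in sparse counts and carry no test.

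Of the 8 genes of BH4 supply, 7 were measured, and 0 met the size rule toward LOC and 1 toward MOC, beside 6.07% and 5.67% of all measured genes, so the count does not set the list apart. The median difference was -0.13. Pcbd1, which recycles the cofactor after hydroxylation, stood at 21.3 CPM (18.9 to 23.8) over LOC cells and 74.9 CPM (70.35 to 79.6) over MOC cells, and was read in 7 of 18 and 10 of 13. The difference of means was -2.03. LOC cell 15 held 63.7% of its LOC reads and MOC cell 2 held 46.7% of its MOC reads, and without those cells the sums were 8.25 and 42.7 CPM. Pts and Spr, the second and the last step of BH4 synthesis, had 39.3 and 33.0 CPM in LOC and 33.0 and 34.7 CPM in MOC, where Pts was at 20.8 CPM without MOC cell 8. Qdpr, which regenerates BH4, had 61.2 and 111 CPM. Gchfr, the feedback regulator of Gch1, had 9.68 and 1.25 CPM but was read in 4 LOC and 3 MOC cells and did not count as measured.

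Breakdown genes were read in either group. All 9 genes of the list were measured and none met the size rule in either direction, which beside 11.7% of all genes says nothing particular of 9 genes, and the median difference was 0.09. The monoamine oxidases had 24.8 and 34.8 CPM for Maoa and 33.2 and 16.1 CPM for Maob. Single cells carried much of this: without LOC cell 3 and MOC cell 3 Maoa was at 10.9 and 16.6 CPM, and without LOC cell 17 Maob was at 20.1 CPM in LOC. These enzymes also serve cells that make no catecholamine.

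Transporters outside the 7 genes were near 0 except for Slc29a4, a low-affinity monoamine transporter of the plasma membrane. Its summed CPM was 77.99 over LOC cells and 72.6 over MOC cells, and it was read in 14 of 18 and 13 of 13 cells. Without LOC cell 15 the LOC value was 43.6 CPM. Of the 7 genes on that list 4 were measured and none met the size rule (median difference -0.43), which beside 11.7% of all genes is again too few genes to read. Slc18a1, the vesicular transporter of endocrine cells, had 1.96 and 0.95 CPM (0.70 without LOC cell 5 and 0.39 without MOC cell 12), and Pnmt 0.14 and 0.07 CPM. Among the receptors that can serve as autoreceptors, all 6 were measured and none met the rule (median difference -0.09), with Adra2a at 15.5 and 9.83 CPM (8.56 without LOC cell 14 and 6.17 without MOC cell 9) and Drd2 at 0.77 and 0.29 CPM, from 11 and 4 reads.

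Among the 6 genes of precursor supply, all measured, 1 met the rule toward LOC and 0 toward MOC, a count that beside 6.07% and 5.67% of all genes does not set the list apart. The median difference was 0.04. The gene was Slc16a10, a transporter of aromatic amino acids, which stood at 7.08 CPM (5.77 to 8.61) over LOC cells and 2.35 (1.61 to 3.31) over MOC cells, a difference of means of 1.29. Without MOC cell 12 the latter was 1.33.

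**Figure D5:**
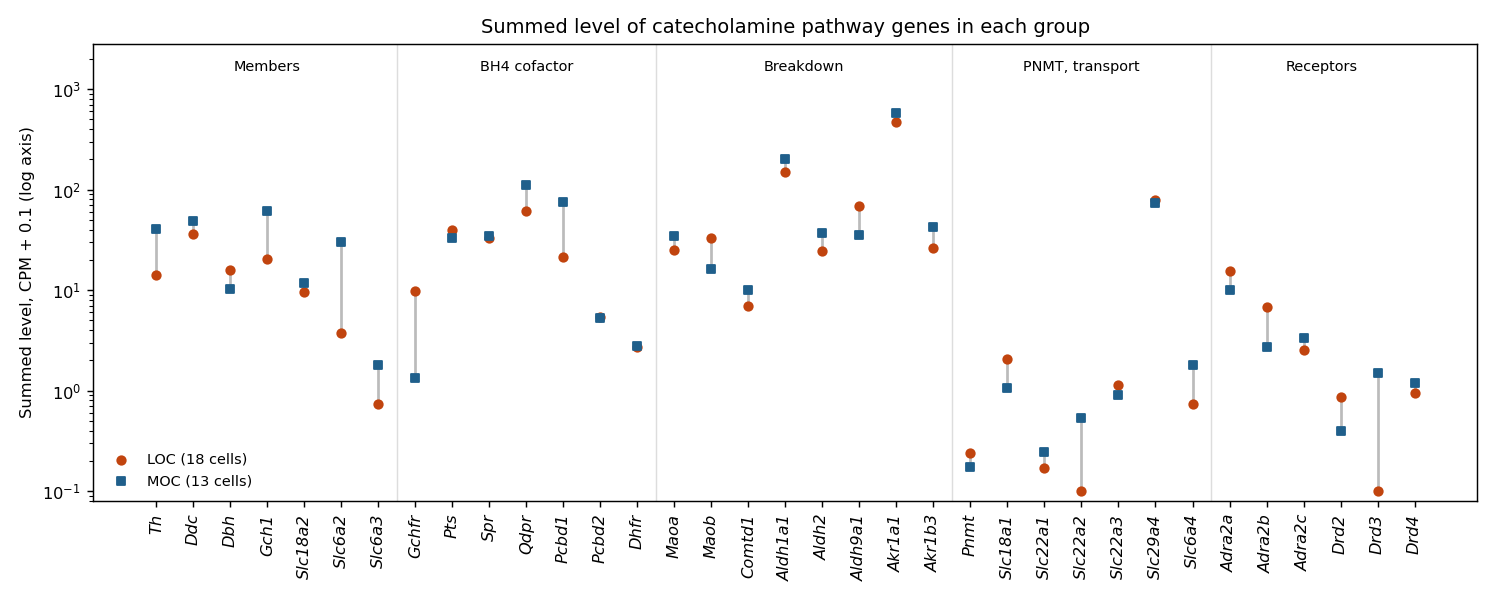
Summed CPM of pathway genes in the 18 LOC cells (orange circles) and the 13 MOC cells (blue squares), with 0.1 added, on a log axis, grouped into the 7 genes, BH4 supply, breakdown, Pnmt with transporters, and receptors. Groups can be compared within a gene, while genes cannot be ranked since levels are not per length. Slc6a2 has the widest gap of the 7 genes (3.65 and 29.99 CPM), and Slc22a2 and Drd3 had no LOC read.

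Markers of catecholamine and serotonin neurons gave the setting for these values. On a list of 7 noradrenergic markers, Dbh and Slc6a2 among them, the summed level ran from 1.05 to 202 CPM in LOC cells and from 0 to 303 CPM in MOC cells, and Slc6a2 alone of the 7 met the size rule. In MOC cell 10, Phox2a, a transcription factor of noradrenergic neurons, had 4 reads, Nr4a2, a factor of dopamine neurons, had 1 and Tph2 had 1. In LOC cell 11 they had 9, 0 and 2. The dopaminergic list ran from 2.84 to 719 CPM in LOC and 5.28 to 1482 CPM in MOC. Summed over each group, Aldh1a1, which glia and other neurons also express, was the highest gene of that list, while in MOC cell 2, the highest cell, Nr4a2 alone had 649 CPM. Pitx3, which marks midbrain dopamine neurons, stood at 0.77 and 0.59 CPM. The serotonergic list ran from 0 to 146 CPM and from 0 to 41.8 CPM. Inhibitory markers ran from 0 to 1012 CPM in LOC and from 10.1 to 2992 CPM in MOC, and oligodendrocyte markers from 21.3 to 237738 CPM in LOC and from 358 to 121939 CPM in MOC. What part RNA of other cells has in the reads of the 7 genes was not tested.

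Among libraries with 10 or more cholinergic reads all 5 LOC cells with the 4 genes were kept, and 3 of the 5 MOC cells. Th was read in 9 of 14 such LOC cells and 5 of 8 such MOC cells, at 14.9 and 52.7 CPM. In these libraries Ddc stood at 35.5 CPM over LOC cells and 65.03 over MOC cells, with a difference of means of -1.10 that missed the 2-fold part of the size rule. Slc18a2 stood at 10.9 and 15.3 CPM (-0.30) and Slc6a3 at 0.66 and 2.43 CPM (-0.67). With a limit of 50, chosen after seeing the data, Th was read in 8 LOC cells of 12 and 2 MOC cells of 5, and the 4 genes were together in 4 LOC cells and 1 MOC cell. In the libraries with fewer than 10, Th was read in 3 LOC cells of 4 and 3 MOC cells of 5, at 8.25 and 15.7 CPM. Th was read on either side of the limit of 10 in each group.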

How the data were processed

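Counts per gene and cell were used as deposited by the authors (18 LOC and 13 MOC libraries of 1 cell, grouped by their titles). Per the submitters' processing notes, the tools include STAR 2.5.2, bcl2fastq, limma, edgeR and DESeq2, with builds named as mm10 and GRCm38 and no roles stated. How reads were assigned to genes, and by which tool, was not given in the sources used here. Nextera libraries keep no strand, and Smart-seq2 reads carry no molecular identifiers. The authors' second table holds a normalized signal, CPM on TMM-adjusted sizes per the file's own name, for 20784 rows. Every value in it is the deposited count times 1 constant per column, and it served as an alternative.

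CPM were computed on the total over 55421 mouse genes, with 19 added sequences left out, and log2 values with a pseudocount of 1. Gene positions and exon lengths came from GENCODE M21 (GRCm38). Intervals are 95% exact Poisson or Clopper-Pearson. The size rule, with 3 counts per group as the lowest value, was also run on simulated data. Slc6a2 fell below the lowest level simulated, so that run does not bear on it. edgeR 4.0.16 (R 4.3.3) gave TMM sizes; the rest ran in Python 3.11.15 with scipy. Neither a p-value nor a standard error was made from cells.

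The 7 genes, the lists and the rule for named genes (all 7, list genes that met the size rule up to 4 per list, and the 5 genes closest to Th and to Ddc) were chosen with earlier results of these data known. Other list genes named were picked for their role. Alternatives were a pseudocount of 10, TMM sizes, the authors' values, sums, medians, thresholds of 5 reads and 10 CPM, thinning to 350000 counts, libraries by cholinergic reads, and leaving out each library. Some genes of the lists are not reported here.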

Additional observations from a re-analysis of the deposited data

How the results depend on the processing

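No paired analysis was possible because no result comes from a test and the cell numbers of the labels mark no shared animal. The difference of Th between groups (-0.40) ran from -1.53 with summed counts to 0.43 with medians, and from -0.65 without LOC cell 4 to 0.05 without MOC cell 10 when each library was left out. The sign of Ddc, Gch1 and Slc6a2 was that of the reported value in all 7 alternatives and all 31 libraries left out. Cells with Th fell from 12 in LOC to 6 at 5 reads and 5 at 10 CPM, and from 8 in MOC to 5 at 10 CPM, 5 in libraries with at least 10 cholinergic reads and 2 with at least 50. Cells with all 4 genes fell from 5 in LOC to 3 at 2 reads, 2 at 5 reads and 1 at 10 CPM of each. In MOC they fell from 5 to 4 at 2 reads, 1 at 5 reads, 1 at 10 CPM, 3 with at least 10 cholinergic reads and 1 with at least 50. The thresholds of 2 reads and of 50 cholinergic reads were added after seeing the data. These drops follow from stricter limits or fewer libraries. With a pseudocount of 10, 0 genes in place of 1 met the size rule toward MOC. TMM sizes and the authors' values left Slc6a2 as the one that met it. Depth limits every value of a few reads, and each group is 1 sample.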
